A study of Mus musculus with 12 samples.

Results

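The comparison described here is the cortex of adult mice carrying the HxD form of Tet1 against the wild type (WT) cortex, restricted to genes whose level differed by degrees between the genotypes. A row of the count table was kept as graded where no WT or HxD library was listed at 0 and where the 4 libraries of one genotype did not all lie at least 8-fold from the 4 of the other. Of 21713 gene symbols that stand on a single row, 10719 were graded, 10955 had a 0 in at least 1 of the 8 libraries, and 39 lay at least 8-fold apart throughout. After a filter on low counts 10177 graded genes could be tested. That filter keeps a gene with enough counts in any 1 genotype, so some low genes passed through the genotype in which they were high.

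Poly(A) RNA of whole adult cortex was sequenced from 4 libraries each of Tet1 WT, Tet1 HxD and Tet1 KO. The labels give each genotype by that name alone, with no account of the allele, the strain, the sex or the exact age, and no treatment. They do not say whether libraries of a genotype came from separate animals, so each p-value is set against a spread between libraries that may be only technical. In bulk tissue, fewer cells of a type and less RNA per cell cannot be told apart.

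TET1 is a dioxygenase that oxidises 5-methylcytosine in DNA, the first step by which the methyl mark can be removed from a CpG site. The enzyme holds its catalytic iron with a motif called HxD, and it also recruits co-repressor complexes such as SIN3 and Polycomb without any need of catalysis. In neurons it has been studied for its part in the expression of genes that respond to activity. The title of the study sets catalytic against non-catalytic functions. From the motif in its name, HxD against WT is read here as the comparison that bears on catalytic functions, which the labels do not state.

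The 8 libraries held 7767787 to 10915574 estimated counts each. Tet1 itself was listed at 0 in all 4 WT libraries and at 1, 0, 63 and 67 counts in HxD 1 to 4, so HxD 2 overlapped WT. An exact permutation test (two-sided) gave p = 0.143, the lowest that these values can give because so many are tied at 0. The test therefore could not decide, and the labels could not be checked on this gene. The glycolytic gene Gapdh, active in all cell types, likewise had 0 in every library, so a 0 here is read only as a listed value. Over the graded genes, log2 CPM (the count scaled to the library's total after edgeR's TMM factor, per 1000000, not divided by gene length) of 2 libraries correlated at 0.93 to 0.957 within a genotype and at 0.93 to 0.956 between WT and HxD, given as a description. Pyramidal neuron, astrocyte and oligodendrocyte genes were all abundant, as the cortex label has it: the vesicular glutamate transporter Slc17a7 stood at 2679 ± 450.1 CPM in WT and 2554 ± 351 in HxD, glutamine synthetase Glul at 3103 ± 339.6 and 2930 ± 461, and the oligodendrocyte phosphodiesterase Cnp at 311 ± 133 and 253 ± 101 (SD, n = 4 for every mean here and below).

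Most graded genes differed little between the genotypes. Their median log2 fold change, HxD over WT, was 0.01, with quartiles of -0.13 and 0.13. The 95% interval of the fold change lay within 2-fold either way for 7079 of 10177 genes (69.6%) and within 1.5-fold for 4696 (46.1%). The median standard error was 0.22 on the log2 scale. A fitted difference of over 1.5-fold was seen for 870 genes, over 2-fold for 306 and over 4-fold for 77. Of all graded genes, 1409 ranged at least 4-fold within WT or within HxD. How many of these were among the larger fitted differences was not counted. Ttc3, a ubiquitin ligase gene named here after its values were seen, had the largest fitted change of all graded genes and shows such a spread. Its levels in HxD 1 to 4 were 1797, 19.5, 11.5 and 1581 CPM, against 0.57, 0.952, 2.55 and 1.3 in WT. HxD 1 and HxD 4 thus stood far above HxD 2 and HxD 3, and the log2 fold change of 9.32 ± 2.76 (SE) was not called by edgeR (adjusted p = 0.469) although DESeq2 called it (adjusted p = 1.1e-05).

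edgeR's quasi-likelihood test called 25 graded genes higher in HxD (0.246% of those tested) and 9 lower (0.0884%) at a Benjamini-Hochberg adjusted p below 0.05. Below, a gene is said to be called, or to pass, where it met this threshold in edgeR, and other tools are named where they differ. Over all 11693 tested genes the calls were 57 higher (0.487%) and 48 lower (0.411%), so the rows that the rule set aside held 71 of the calls. At an unadjusted p below 0.05 there were 172 graded genes higher (1.69%) and 171 lower (1.68%). All 4 HxD libraries lay above all 4 WT libraries for 162 graded genes (1.59%, against 1.76% of all tested genes) and below them for 135 (1.33%, against 1.72%). This balance depends on the scaling, as with upper-quartile factors the numbers were 126 above and 159 below, and with library size alone 199 and 118. Of the 34 calls, 28 exceeded 4-fold, and they lie on 15 chromosomes. The word graded therefore describes the 10177 genes better than it describes those called.

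**Figure D1:**
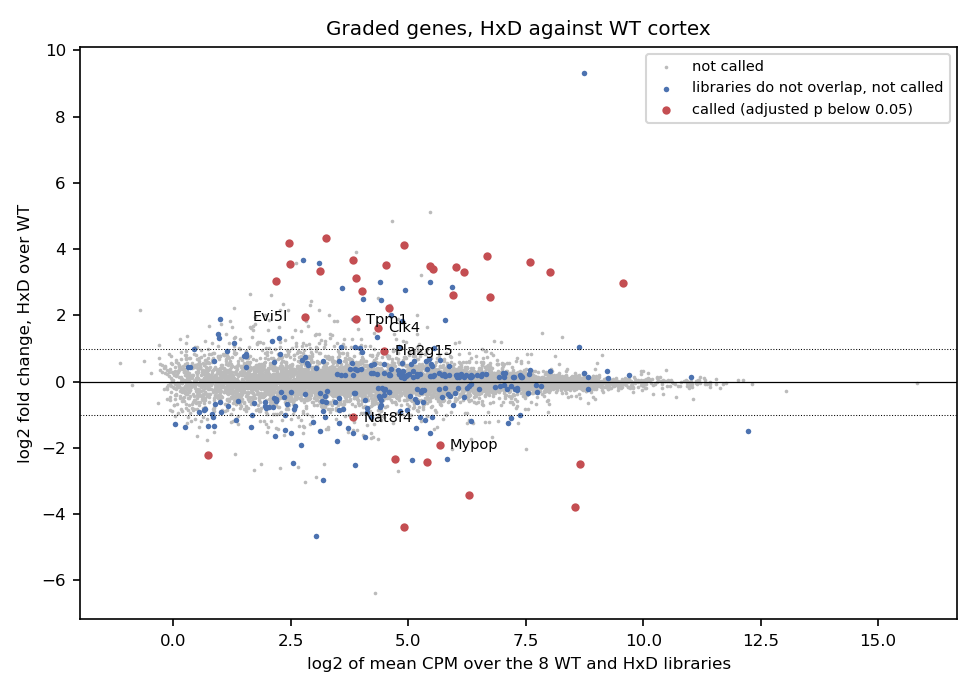
Each point is a graded gene, with the log2 of its mean CPM over the 8 WT and HxD libraries on the x axis and the log2 fold change (HxD over WT) on the y axis. Red points are the 34 called genes, blue points are genes whose libraries did not overlap but which were not called, dotted lines mark 2-fold, and the 6 called genes within 4-fold are named.

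Called genes within 4-fold numbered 6, and 4 of them were higher in HxD. Clk4, Pla2g15 and Nat8f4 had the smallest folds of all 34 calls. Since TET1 acts on CpG sites, the 250 bases before their RefSeq transcription starts (GRCm38.p6) are shown 5′ to 3′ along the gene, with each CpG in capitals.
Clk4, chr11:51262864-51263113, + strand: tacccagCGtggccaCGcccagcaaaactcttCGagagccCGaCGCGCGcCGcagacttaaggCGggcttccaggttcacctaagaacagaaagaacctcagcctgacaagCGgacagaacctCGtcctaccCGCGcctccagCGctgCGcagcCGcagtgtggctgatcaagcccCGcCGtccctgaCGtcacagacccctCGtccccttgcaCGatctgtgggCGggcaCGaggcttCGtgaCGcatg
Pla2g15, chr8:106150104-106150353, + strand: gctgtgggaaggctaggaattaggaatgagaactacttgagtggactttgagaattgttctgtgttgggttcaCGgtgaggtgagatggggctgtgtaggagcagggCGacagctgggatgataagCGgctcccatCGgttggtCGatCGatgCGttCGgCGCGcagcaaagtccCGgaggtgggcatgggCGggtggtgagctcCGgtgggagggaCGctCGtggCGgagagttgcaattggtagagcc
Nat8f4, first start, chr6:85904939-85905188, - strand: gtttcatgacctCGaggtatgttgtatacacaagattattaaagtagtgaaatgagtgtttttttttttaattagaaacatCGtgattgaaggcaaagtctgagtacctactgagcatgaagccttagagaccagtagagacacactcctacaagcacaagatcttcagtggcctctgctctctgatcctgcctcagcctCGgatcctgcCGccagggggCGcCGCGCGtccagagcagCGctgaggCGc
Nat8f4, second start, chr6:85902534-85902783, - strand: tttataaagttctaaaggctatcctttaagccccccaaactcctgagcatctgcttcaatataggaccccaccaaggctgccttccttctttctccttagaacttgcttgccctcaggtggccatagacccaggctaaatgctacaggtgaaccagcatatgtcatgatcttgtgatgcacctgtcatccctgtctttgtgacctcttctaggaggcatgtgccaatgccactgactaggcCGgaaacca
The windows hold 25, 16, 10 and 1 CpG sites. Among 9889 such windows of 8029 graded genes, the median was 16 (quartiles 9 and 23), 35.58% held 20 or more and 2.761% held 1 or none. The 4 windows thus run from a CpG-dense start at Clk4 to a start of Nat8f4 nearly free of the dinucleotide. No methylation was measured in these libraries.

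Clk4, a kinase that phosphorylates SR splicing factors, rose 3.07-fold in HxD. WT 1 to 4 stood at 12.3, 9.33, 7.9 and 10.8 CPM, HxD 1 to 4 at 32.6, 31.1, 36.3 and 24 and KO 1 to 4 at 23.3, 22.4, 25.1 and 16.6. The lowest HxD library was well above the highest WT library, and 3 of the 4 KO libraries lay between the 2, while KO 3 lay above HxD 4. The log2 fold change was 1.62 ± 0.19 in HxD against WT (adjusted p = 0.0011) and 1.11 ± 0.19 in KO against WT (adjusted p = 0.0687), 2 comparisons that share the WT libraries. Clk4 has 8 curated RefSeq transcripts, which a count per symbol does not tell apart.

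Pla2g15, the lysosomal phospholipase A2, showed the smallest called change, a rise of 1.89-fold. Its levels were 17.2, 15.2, 13.7 and 15.7 CPM in WT 1 to 4 and 32.1, 24.7, 34.9 and 25.6 in HxD 1 to 4. Libraries within each genotype stayed within 1.5-fold of each other, and the KO values of 24.8, 26.3, 18.4 and 21.2 lay above every WT library. With a log2 fold change of 0.92 ± 0.16 (95% interval 0.57 to 1.27, adjusted p = 0.0181), the call was lost without WT 2, WT 3, WT 4, HxD 1 or HxD 3 (adjusted p up to 0.0809).

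Nat8f4, of a family of N-acetyltransferases, was the called gene with the smallest decrease. WT 1 to 4 held 16.2, 14.4, 22.7 and 23.4 CPM and HxD 1 to 4 held 10.4, 7.67, 9.72 and 8.39. Every HxD library was below every WT library, while KO at 16.3, 13.6, 13 and 14.9 overlapped WT. The log2 fold change was -1.08 ± 0.19 (adjusted p = 0.0223), a call lost without WT 3, WT 4, HxD 2, HxD 3 or HxD 4 (adjusted p up to 0.101). Its relatives Nat8f1, Nat8f2, Nat8f3, Nat8f5 and Nat8f7 are similar in sequence and stood at means of 0.679 to 4.73 CPM in WT or HxD, none called, so how reads were split within the family is uncertain.

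Evi5l and Tpm1 rose and Mypop fell by slightly under 4-fold. Tpm1, a tropomyosin that coats actin filaments, went from 8.1, 6.19, 7.41 and 3.61 CPM in WT to 16.7, 19.8, 21.2 and 35.5 in HxD, with KO at 4.85 ± 0.588 close to WT (log2 fold change 1.88 ± 0.30, adjusted p = 0.0105). Evi5l, of a family of Rab GTPase-activating proteins, stood at 2.84 ± 0.541 CPM in WT and 11.1 ± 3.88 in HxD (3.91-fold, adjusted p = 0.0182). Its call was lost without WT 1, WT 2, WT 4, HxD 2 or HxD 3 (adjusted p up to 0.0854). Mypop, a Myb-related transcriptional repressor, fell from 71.1, 92.1, 70.0 and 88 CPM to 13.9, 38.6, 13.8 and 18.6. HxD 2 stood above the other 3 HxD libraries and was still well below the lowest WT library. KO stood at 80.0 ± 15.2 CPM, at the WT level (log2 fold change of HxD over WT -1.92 ± 0.32, adjusted p = 0.0138), and the call was lost without HxD 4 (adjusted p up to 0.0635).

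**Figure D2:**
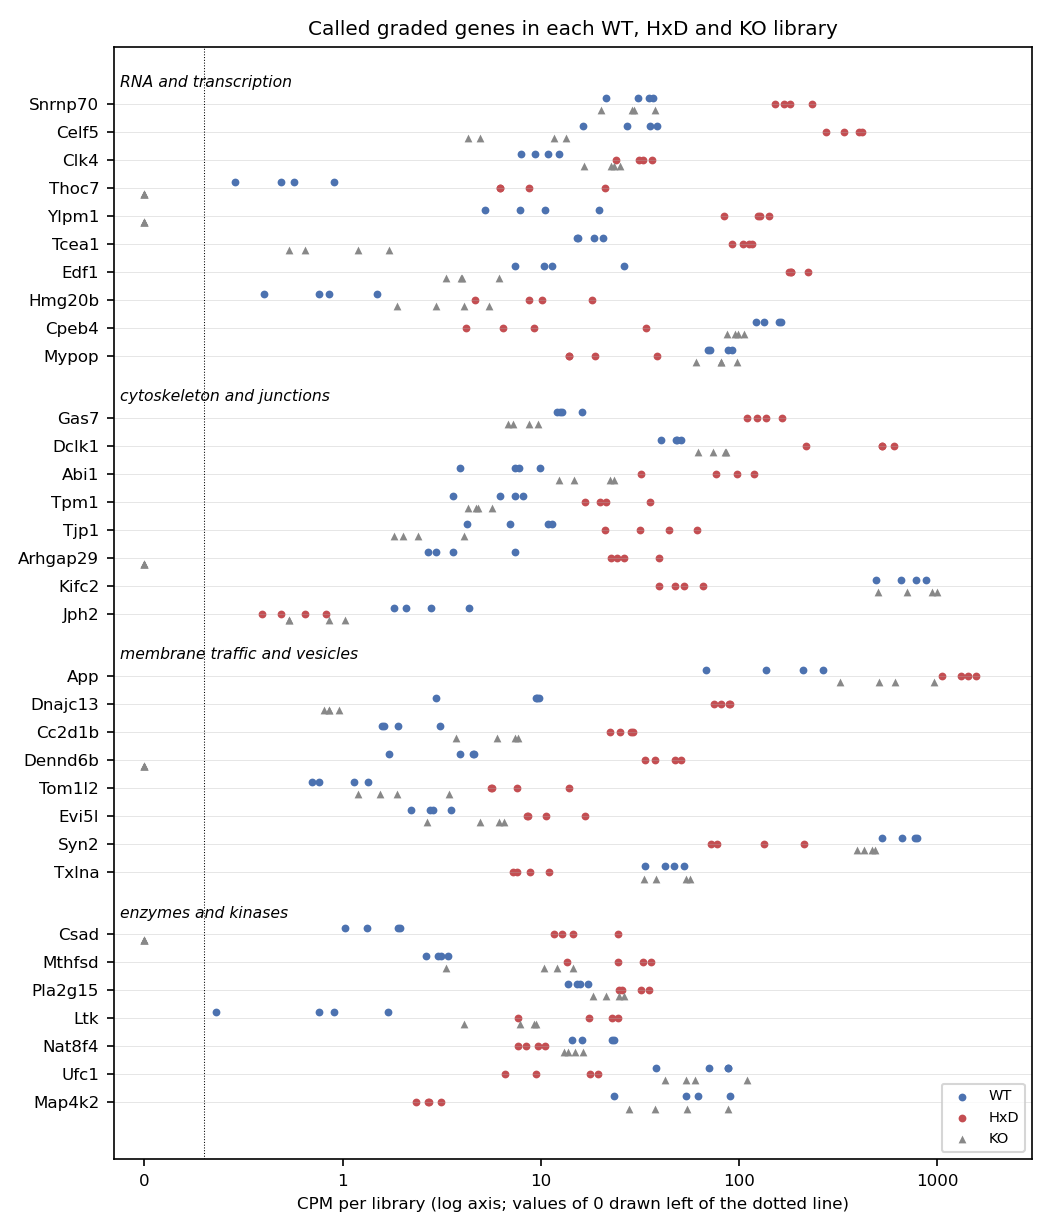
CPM in each library (x axis, log scale, with values of 0 drawn left of the dotted line) for 33 of the called graded genes, in 4 groups by function. Blue circles are WT, red circles HxD and grey triangles KO, 4 libraries each. No red circle overlaps the blue ones of the same gene, and 5 genes have all KO triangles at 0.

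The 34 called genes were sorted into 4 groups by known function after their values were seen, so the groups describe them and were not tested. The first holds 10 genes of RNA processing and transcription, 8 higher and 2 lower. Snrnp70, the U1 snRNP protein that helps to define the 5′ splice site, rose 5.92-fold, from 35, 36.9, 31 and 21.3 CPM in WT to 168, 234, 181 and 152 in HxD. KO at 29 ± 7.1 stayed at the WT level, so only the HxD libraries stood apart from WT (log2 fold change 2.56 ± 0.23, adjusted p = 1.3e-04). Celf5, a neuronal regulator of alternative splicing, rose from 38.6, 35.3, 27.1 and 16.2 to 403, 275, 415 and 338 CPM, and KO was lowest at 8.56 ± 4.61 (adjusted p of HxD against WT = 5.8e-04). Both genes were called in all 18 refits with other tools, scalings, filters or library sets.

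Factors of transcript elongation, export and coactivation rose as well. Tcea1, the elongation factor TFIIS that rescues stalled RNA polymerase II, stood at 20.5, 15.4, 18.5 and 15.2 CPM in WT and 116, 92.4, 104 and 112 in HxD (6.1-fold, adjusted p = 2.9e-04). Its 4 KO libraries held 1.2, 0.534, 0.642 and 1.71 CPM, so the 3 genotypes fell at 3 separate levels. Edf1, a transcriptional coactivator that also binds collided ribosomes, rose from 13.9 ± 8.44 to 191 ± 20.3 CPM, with KO at 4.35 ± 1.25 (log2 fold change 3.79 ± 0.37, adjusted p = 2.7e-04). Hmg20b, a subunit of the LSD1-CoREST complex, went from 1.48, 0.762, 0.851 and 0.401 to 4.63, 18.1, 10.1 and 8.68 CPM (adjusted p = 0.0083). It was carried by only 4 to 13 counts in a WT library.

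Ylpm1, a nuclear protein, rose 11-fold, from 7.87, 10.5, 19.7 and 5.21 CPM to 124, 128, 83.5 and 142, while its 4 KO libraries were each listed at 0 (adjusted p of HxD against WT = 0.0086). Thoc7, a subunit of the THO complex of mRNA export, was likewise at 0 in KO. It held 5, 3, 4 and 9 counts in WT 1 to 4 and 58, 161, 74 and 64 in HxD 1 to 4 (log2 fold change 4.19 ± 0.60, adjusted p = 0.0172). HxD 2 carried more than the other 3 HxD libraries, WT rested on fewer than 10 counts, and the call was lost without WT 1, WT 2 or WT 3 (adjusted p up to 0.0921).

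Cpeb4, which binds cytoplasmic polyadenylation elements and controls the translation of neuronal mRNAs, fell 10.8-fold. Its WT libraries held 158, 162, 122 and 134 CPM and its HxD libraries 9.26, 33.9, 6.44 and 4.19. HxD 2 stood far above the other HxD libraries, and KO at 96.6 ± 7.75 CPM was nearer to WT (log2 fold change of HxD over WT -3.43 ± 0.56, adjusted p = 0.0124). The call was lost without HxD 1 (adjusted p up to 0.0576), and without HxD 2 the log2 fold change was -4.44.

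Of 8 called genes of the cytoskeleton and of cell junctions, 6 rose and 2 fell. Gas7, an F-BAR protein of neurite outgrowth, had the smallest p of all graded genes. It stood at 12.8, 16.2, 12.5 and 12 CPM in WT, 136, 109, 123 and 163 in HxD and 7.19, 9.62, 6.84 and 8.71 in KO. KO was slightly below WT, and the HxD libraries were at least 6.75-fold above any WT library (log2 fold change 3.31 ± 0.17). Dclk1, a doublecortin-like kinase that binds microtubules in growing and mature neurons, went from 48.6, 50.8, 48.1 and 40.2 to 523, 523, 217 and 607 CPM (adjusted p = 8.5e-05). HxD 3 was the lowest of the HxD libraries, yet over 4 times any WT library.

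Abi1, a subunit of the WAVE complex that drives actin branching in spines, rose from 9.92, 7.71, 3.89 and 7.42 to 32, 76, 119 and 97 CPM (log2 fold change 3.48 ± 0.44, adjusted p = 0.0018), with KO at 18.2 ± 5.49. Tjp1, the tight junction scaffold ZO-1, went from 8.38 ± 3.38 to 39.5 ± 17.2 CPM (adjusted p = 0.0306). It lost its call without WT 1, WT 2, WT 3, WT 4, HxD 1, HxD 2 or HxD 3 (adjusted p up to 0.149). Arhgap29, a GTPase-activating protein, rose 6.72-fold to 28.1 ± 7.72 CPM, and was at 0 in all KO libraries (adjusted p of HxD against WT = 0.0181). The call was lost without WT 1, WT 2, WT 4, HxD 2, HxD 3 or HxD 4 (adjusted p up to 0.0952).

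Kifc2, a minus-end kinesin of neurons, was the strongest decrease by p. Its levels were 873, 655, 487 and 779 CPM in WT 1 to 4 and 66, 39.4, 47.2 and 52.4 in HxD 1 to 4, with KO at 784 ± 229.9, at the WT level (log2 fold change of HxD over WT -3.77 ± 0.28, adjusted p = 2.6e-05). Jph2, a junctophilin that ties the plasma membrane to the endoplasmic reticulum, fell from 38, 22, 23 and 18 counts to 6, 3, 7 and 5. At such low counts its call (adjusted p = 0.038) was lost without WT 1, WT 2, WT 3, WT 4, HxD 1, HxD 2, HxD 3 or HxD 4 (adjusted p up to 0.183), and KO at 6, 4, 5 and 5 counts stood with HxD.

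Membrane traffic held 8 called genes, 6 higher and 2 lower. App, the amyloid precursor protein and the gene with the most CPM of all 34, rose 7.93-fold: WT 1 to 4 held 67.6, 263, 209 and 136 CPM and HxD 1 to 4 held 1422, 1319, 1056 and 1564. KO was spread between them at 612, 963, 324 and 505, and WT itself ranged 3.89-fold (log2 fold change 2.99 ± 0.43, adjusted p = 0.0055). Dnajc13, a co-chaperone of early endosomes, stood at 9.47, 2.95, 9.6 and 9.82 CPM in WT, 80.6, 74.6, 89.3 and 90.2 in HxD and 0.856, 0.802, 0.962 and 0.854 in KO. These are 3 levels with no overlap, and the lowest HxD library was 7.59-fold above the highest WT library, just inside the 8-fold limit (adjusted p = 2.0e-04).

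Cc2d1b, an endosomal partner of the ESCRT-III machinery, rose from 3.08, 1.62, 1.58 and 1.9 to 22.2, 28.3, 25.2 and 29.1 CPM (log2 fold change 3.67 ± 0.31). Dennd6b, an exchange factor for Rab GTPases, rose 11.5-fold to 42.4 ± 8.22 CPM (adjusted p = 0.0021) with every KO library listed at 0. Tom1l2, an adaptor for ubiquitinated cargo, went from 0.985 ± 0.305 to 8.18 ± 3.94 CPM (adjusted p = 0.0066). It rested on 10, 8, 11 and 7 counts in the WT libraries and was not called by limma-voom (adjusted p = 0.0958). With Dnajc13, these genes act in the sorting of membranes and cargo at endosomes or in other steps of vesicle traffic.

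The decreases in this group were Syn2 and Txlna. Syn2, a synapsin that tethers synaptic vesicles, went from 662, 788, 768 and 527 CPM in WT to 213, 71.7, 133 and 77.3 in HxD, and KO held 392, 483, 466 and 425. Every KO library lay between the 2 other genotypes, at log2 fold changes of -2.47 ± 0.32 in HxD and -0.64 ± 0.30 in KO against the shared WT libraries. Txlna, a taxilin that binds syntaxins, fell 5.05-fold, from 42.2, 46.7, 52.5 and 33.5 to 8.83, 10.9, 7.26 and 7.61 CPM, with KO at 45.4 ± 11.6 (adjusted p of HxD against WT = 2.0e-04).

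Enzymes and kinases made up the other 8 calls, 5 higher and 3 lower. Csad, the decarboxylase of taurine synthesis, rose from 1.03, 1.33, 1.94 and 1.9 to 12.7, 14.4, 11.6 and 24.5 CPM (adjusted p = 0.0049), and was at 0 in KO. Mthfsd, a protein with a folate synthetase domain, went from 3.05 ± 0.326 to 26.7 ± 9.94 CPM (adjusted p = 0.0046).

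Ltk, a receptor tyrosine kinase, rose from 2, 8, 14 and 9 counts in WT 1 to 4 to 71, 135, 196 and 252 in HxD 1 to 4, and had the largest called increase, at a log2 fold change of 4.32 ± 0.59 (adjusted p = 0.0033). It was not called by limma-voom (adjusted p = 0.298) or with a covariate for libraries 1 and 3 against 2 and 4 (adjusted p = 0.0682). Map4k2, a kinase upstream of the JNK pathway, had the largest decrease at -4.39 ± 0.48. Its HxD libraries were close together at 2.69, 3.12, 2.34 and 2.73 CPM, its WT libraries spread over 61.7, 53.8, 23.5 and 90.1, and KO at 37.7, 88.2, 27.7 and 54.5 matched the WT range (adjusted p of HxD against WT = 5.4e-04). Map4k2 was not called by limma-voom either (adjusted p = 0.168). Ufc1, the conjugating enzyme for the ubiquitin-like UFM1, fell from 38.1, 88.1, 88.1 and 70.1 to 17.8, 9.49, 6.56 and 19.4 CPM (adjusted p = 0.0224), a call lost without WT 2, WT 3, WT 4, HxD 2 or HxD 3 (adjusted p up to 0.102).

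Most of the 34 called genes have several annotated transcripts. By curated RefSeq entries, 5 of 34 (14.7%) have a single transcript, against 57.4% of the graded genes. Among genes whose libraries did not overlap but which were not called the share was 56.5% (148 of 262), and among called genes that the graded rule set aside it was 33.8% (24 of 71). Called genes with many transcripts included Celf5 with 16, Dclk1 and Abi1 with 12 each, and Tpm1 and Mthfsd with 10 each. The part of transcript number in these calls was not tested. In CpG content the called genes were close to the others: their most CpG-rich promoter window of 300 bases held a median of 25.5 sites, and that of all graded genes 22.

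The 8-fold limit runs through a continuous range. Just inside it were Dnajc13, Map4k2 and Kifc2, with gaps between the nearest WT and HxD libraries of 7.59-, 7.52- and 7.39-fold. Just outside were Itga6, Lrrtm2 and Kansl3 at 8.41-, 8.47- and 9.76-fold. With a limit of 4-fold in place of 8-fold, 9 genes would be counted higher and 7 lower, and with 16-fold 36 and 14.

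Beyond the calls, 263 graded genes had WT and HxD libraries that did not overlap without an edgeR call, of which DESeq2 called 36 and limma-voom 5. The 10 per direction with the smallest p are described here, and DESeq2 called all 20 of them, while limma-voom called 3 (Exog, Sfxn3 and Tapbpl). With only the 8 WT and HxD libraries in the fit, edgeR called 4 (Exog, Sfxn3, Nol4 and Pcdhga12). Several had small and even differences. Zdhhc16, a palmitoyltransferase, held 16.2, 14.5, 15.6 and 15.5 CPM in WT and 19.2, 24.3, 21 and 22.6 in HxD, and KO at 22.6 ± 1.53 resembled HxD (log2 fold change of HxD over WT 0.49 ± 0.11, adjusted p = 0.12 in edgeR and 0.0029 in DESeq2). Tapbpl, a peptide editor of MHC class I loading, held 14, 16.5, 16.5 and 15.4 CPM in WT and 8.18, 8.32, 11.2 and 7.71 in HxD, with KO at 9.97 ± 1.15. Its log2 fold change was -0.82 ± 0.17, the smallest p of the genes lower in HxD without an edgeR call (adjusted p = 0.066, against 6.0e-05 in DESeq2, 0.0205 in limma-voom and 0.0227 in edgeR without HxD 3).

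Maob, the monoamine oxidase that degrades dopamine and phenethylamine, held 42.9, 42.2, 54.4 and 51.6 CPM in WT and 40.6, 29.4, 26.1 and 29.3 in HxD (log2 fold change -0.61 ± 0.15, adjusted p = 0.173, or 0.0202 without HxD 1). Dyrk1b, a dual-specificity kinase, stood at 37.8 ± 3.17 and 27.8 ± 2.77 CPM (log2 fold change -0.44 ± 0.11), and Ttc7b, a scaffold of the lipid kinase PI4KA, at 113 ± 43.8 and 49.4 ± 6.44, with KO at 41.4 ± 6.55. Fdft1, the squalene synthase that commits isoprenoids to cholesterol, held 51.6, 53.1, 90.7 and 31.5 CPM in WT and 21.2, 12.3, 5.27 and 5.07 in HxD, and KO was above both at 83.7 ± 32.5 (adjusted p of HxD against WT = 0.0884, or 0.0258 without HxD 1). By the same rule, Rnps1, Gpcpd1 and Crb2 were lower in HxD at log2 fold changes of -1.39 ± 0.34, -1.49 ± 0.37 and -1.23 ± 0.31. edgeR called none of these 7 genes, and DESeq2 called all 7, at adjusted p from 1.8e-04 (Fdft1) to 0.0114 (Rnps1).

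On the higher side the uncalled genes with the smallest p were mostly larger and less even. Exog, a mitochondrial nuclease, stood at 2.51, 2.76, 2.92 and 3.61 CPM in WT and 23, 19.6, 19.2 and 23 in HxD (log2 fold change 2.84 ± 0.59, adjusted p = 0.0658). It was called by DESeq2 (2.4e-33) and limma-voom (6.8e-05), and by edgeR on the 8 libraries alone (1.8e-04) and with the covariate (7.0e-04), each an adjusted p. Sfxn3, a mitochondrial serine carrier of the sideroflexin family, stood at 14.7 ± 7.13 CPM and 107 ± 25.1 CPM. Syt7, a calcium sensor of asynchronous transmitter release, held 10.7, 5.05, 6.56 and 3.91 CPM in WT and 22, 13.3, 22.1 and 88.8 in HxD. HxD 4 alone stood far above the rest (log2 fold change 2.48 ± 0.58, or 1.54 without HxD 4, adjusted p = 0.136). Cnot2, of the CCR4-NOT deadenylase, stood at 0.845 ± 0.219 and 3.14 ± 0.97 CPM. For Nol4, Mcfd2, Golga5 and Mafk the log2 fold changes were 3.68 ± 0.82, 1.87 ± 0.42, 2.50 ± 0.57 and 3.58 ± 0.75. edgeR called none of these 4 and DESeq2 called all, at adjusted p of 3.3e-06, 0.0015, 8.1e-04 and 1.3e-04. Mcfd2 was also called by edgeR without HxD 4 (adjusted p = 0.0346), and Nol4 with the covariate (adjusted p = 0.035).

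Gene lists were then read for their graded members. The lists were chosen with earlier results of these data known, so a share of calls within a list is a description only. Over all 10177 graded genes, 5293 lay above WT and 4884 below, the shares called were 0.246% higher and 0.0884% lower, and the shares without overlap were 1.59% and 1.33%. These are the background for the counts that follow. Of 48 lists, 47 had graded members and 4 held a called gene. The other 43 lists held 1305 graded genes with 0 edgeR calls, of which 28 were higher and 20 lower at an unadjusted p below 0.05, shares close to the 1.69% and 1.68% of all graded genes. There DESeq2 called 5 higher and 5 lower, namely Pcdhgb6, Psmc2, Cadm1, Kif21a and Cnot2, and Pcdhga3, Pcdhga12, Pcdhb2, Fdft1 and Ndn, and limma-voom called 2 higher (Cadm1 and Grb10) and 0 lower. For 8 lists whose median lay within 0.02 of 0 the sign of the median changed with the scaling, so these are given as near 0. Of 91 splicing factors and RNA-binding proteins, 78 were graded. Among them 3 were called higher (Snrnp70, Celf5 and Clk4) and 0 lower, against 0.246% and 0.0884% of all graded genes, 60 lay above WT, against 5293 of 10177, and the median log2 fold change was 0.08 (quartiles 0.00 and 0.35) against 0.01 over all graded genes. List scores, the median over the members of log2 CPM centred on each gene's WT mean, were 0.01, -0.05, -0.01 and 0.06 in WT 1 to 4 and 0.09, 0.13, 0.13 and 0.06 in HxD 1 to 4. HxD 4, the lowest HxD library, was just below WT 4, so the genotypes overlapped by that 1 library. Hnrnpu, an abundant nuclear scaffold RNA-binding protein, was among the 4 members whose libraries did not overlap, at 613, 602, 570.4 and 566 CPM in WT and 629, 638, 632 and 647 in HxD, a log2 fold change of 0.11 ± 0.05 that did not pass (adjusted p = 0.999).

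**Figure D3:**
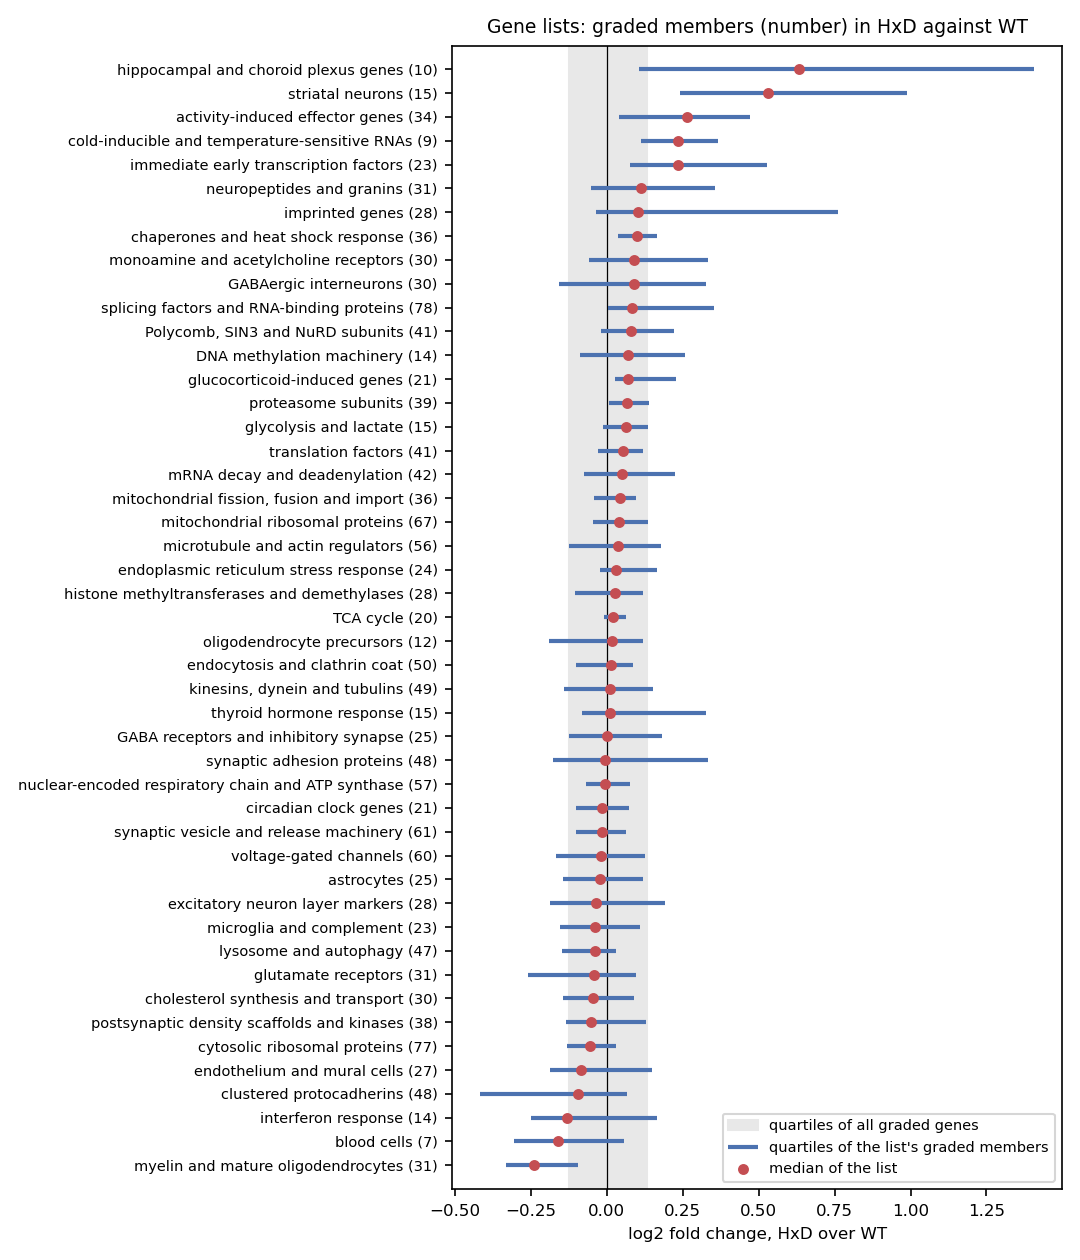
Median (red point) and quartiles (blue line) of the log2 fold change, HxD over WT, over the graded members of each of 47 gene lists, with the number of members after the name. The grey band spans the quartiles of all graded genes, -0.13 to 0.13, and most medians lie within it.

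Postsynaptic density scaffolds and kinases held 2 genes called higher, Dclk1 and Abi1, among 38 graded members (0.246% of all graded genes were called higher), whose median was -0.05, with 24 below WT. Microtubule and actin regulators held Gas7 and Tpm1, called higher, among 56 (against the same 0.246% of all graded genes), with a median of 0.04. Tpm1 was not called by edgeR on the 8 WT and HxD libraries alone (adjusted p = 0.0662) or with the covariate (adjusted p = 0.153). In the synaptic vesicle and release machinery, 1 of 61 members was called, Syn2 (0.0884% of all graded genes were called lower), and the median was -0.02. Abundant members such as Snap25, the SNARE of vesicle fusion, and complexin Cplx2 were alike in both genotypes: Snap25 stood at 4363 ± 1116 and 4532 ± 1608 CPM and Cplx2 at 2910 ± 350.5 and 3047 ± 175. The calls in these lists were thus single genes, and the lists around them stayed near 0.

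Receptors and channels held none of the called genes. Glutamate receptors had a median of -0.04 over 31 graded members, and Gria2, the AMPA receptor subunit that limits calcium entry, held 823, 804, 754 and 683 CPM in WT and 964, 849.7, 888 and 836 in HxD. All 4 HxD libraries were above WT, at a log2 fold change of 0.21 ± 0.09 (adjusted p = 0.999). GABA receptors and inhibitory synapse proteins had a median of 0.00 over 25 members, voltage-gated channels -0.02 over 60, and monoamine and acetylcholine receptors 0.09 over 30. Among 48 synaptic adhesion proteins Cadm1, which joins both sides of the synapse, was the only one without overlap, at 8.44, 11.1, 13.1 and 8.72 CPM in WT and 26.7, 18.7, 19.7 and 19.2 in HxD (log2 fold change 1.02 ± 0.31, adjusted p = 0.51 in edgeR, 0.0418 in DESeq2 and 0.0392 in limma-voom). Chga, a granin of dense-core vesicles, was the only one of 31 neuropeptides and granins without overlap, at 227 ± 17.3 and 287 ± 31.6 CPM (log2 fold change 0.34 ± 0.11). Of all graded genes 1.59% lay above WT without overlap, the background for single members such as Gria2, Cadm1 and Chga.

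Clustered protocadherins, cell surface proteins whose promoter choice is tied to DNA methylation and which mark single neurons, lay on both sides of WT. Of 58 on the list 48 were graded and 0 were called, 2 being higher and 8 lower at an unadjusted p below 0.05, where all graded genes gave 1.69% and 1.68%. Their median was -0.09 (quartiles -0.42 and 0.07), with 31 below WT. Of the members whose libraries did not overlap, 5 were lower in HxD and 2 higher, against 1.33% and 1.59% of all graded genes.

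Pcdhga3 held 35.7, 50.6, 37.3 and 37.6 CPM in WT and 15.8, 24.7, 24.2 and 24.3 in HxD, with a log2 fold change of -0.86 ± 0.20 (adjusted p = 0.151). Pcdhga12 held 54, 64.9, 67 and 61.6 CPM in WT and 27, 22, 37.1 and 32.3 in HxD, with a log2 fold change of -1.06 ± 0.25 (adjusted p = 0.15). In both genes every HxD library was below every WT library. KO stood at 22.8 ± 5.06 and 35.3 ± 12.1 CPM, also below WT. The others had lower counts: Pcdhac1 stood at 12.6 ± 2.86 and 6.08 ± 1.48 CPM, Pcdhb2 at 4.54 ± 1.35 and 1.76 ± 0.479, and Pcdhb6 at 4.64 ± 0.957 and 3.04 ± 0.374. On the higher side Pcdhgb6 held 40.8, 30.4, 48.1 and 39.1 CPM in WT and 50.7, 71.5, 65.7 and 63.9 in HxD (log2 fold change 0.67 ± 0.16, adjusted p = 0.136), and Pcdhgc4 stood at 36.4 ± 2.88 and 47.8 ± 3.49. Genes within the alpha and within the gamma cluster share constant exons, so the split of reads between them is uncertain. edgeR called none of the 7, and DESeq2 called 4, at adjusted p of 0.0217 (Pcdhb2), 0.0068 (Pcdhga3), 0.0069 (Pcdhga12) and 0.0069 (Pcdhgb6). Pcdhga12 was also called by edgeR on the 8 libraries alone (adjusted p = 0.0383).

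**Figure D4:**
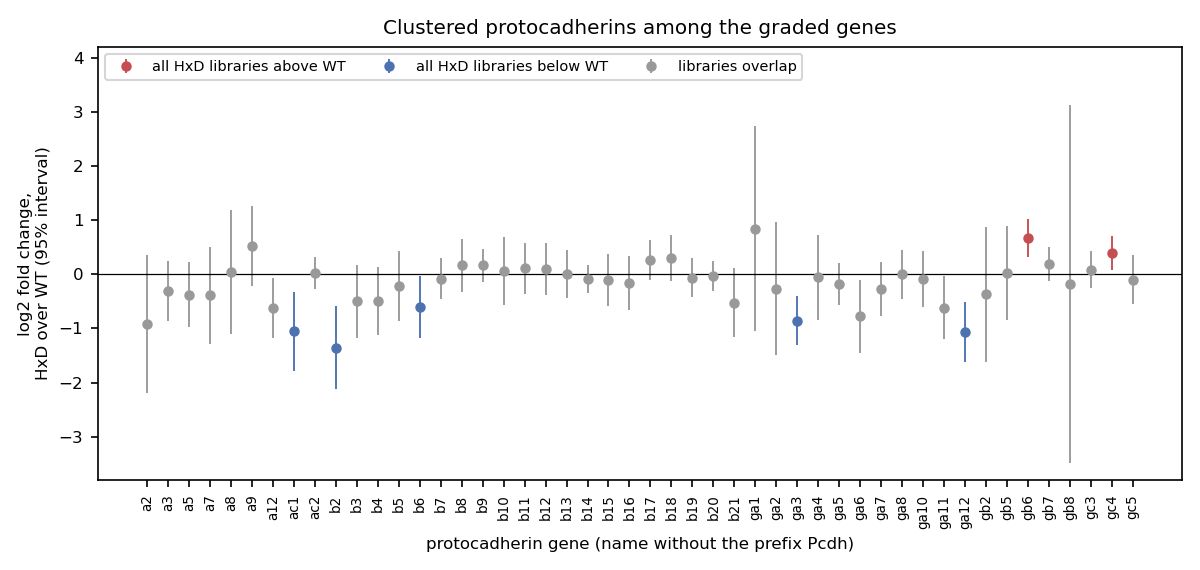
Log2 fold change, HxD over WT, with its 95% interval (y axis) for each of the 48 graded protocadherins, ordered by cluster and number (x axis). Red marks the 2 genes with all HxD libraries above WT and blue the 5 with all HxD libraries below, and most of the intervals include 0.

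Genes of protein quality control differed little. Of 39 graded proteasome subunits, 36 (92.3%) had an interval within 2-fold, and none was among the called genes. Their median was 0.07 with 30 above WT, and 3 did not overlap, all higher in HxD (1.59% of all graded genes were). Psmc2, an ATPase of the regulatory particle, held 118, 122, 123 and 122 CPM in WT and 142, 162, 147 and 134 in HxD (log2 fold change 0.27 ± 0.07, adjusted p = 0.3 in edgeR and 0.0107 in DESeq2). Psmb2, of the catalytic core, stood at 64.2 ± 3.45 and 76.1 ± 6.26 CPM, and Psmd12 at 115 ± 1.8 and 128 ± 7.87. Of 36 chaperones 31 lay above WT, the median was 0.10, and none was without overlap. Scores of the proteasome list were -0.04, -0.01, 0.06 and 0.01 in WT 1 to 4 and 0.09, 0.18, 0.04 and 0.07 in HxD 1 to 4, and the ranges overlapped only through WT 3 and HxD 3. In the endoplasmic reticulum list Canx, the lectin chaperone calnexin, held 389, 389.7, 362 and 431 CPM in WT and 441, 460.4, 471 and 495 in HxD (log2 fold change 0.25 ± 0.11, adjusted p = 0.999).

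Translation and energy metabolism held none of the called genes. Cytosolic ribosomal proteins had a median of -0.06 over 77 graded members with 53 below WT, and the intervals of 67 lay within 2-fold. Mitochondrial ribosomal proteins had a median of 0.04 over 67. Among them 4 did not overlap, all higher in HxD (1.59% of all graded genes were), led by Mrps23 at 27.4 ± 1.77 and 39.7 ± 7.52 CPM (log2 fold change 0.53 ± 0.21, adjusted p = 0.999). Translation factors had a median of 0.05 over 41, and Eif3b, a scaffold of the initiation factor eIF3, held 157, 169.9, 168 and 153 CPM in WT and 174, 179.9, 181 and 178 in HxD (log2 fold change 0.14 ± 0.06). The nuclear-encoded respiratory chain stood at a median of -0.01 over 57, the TCA cycle at 0.02 over 20 and glycolysis at 0.06 over 15. Sdha, a subunit of succinate dehydrogenase, was alike at 641 ± 27.6 and 621 ± 43.5 CPM.

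Chromatin genes bear on the functions named in the title. Subunits of Polycomb, SIN3 and NuRD complexes lay above WT for 28 of 41 graded members, at a median of 0.08. The histone-binding subunit Rbbp4 stood at 231 ± 15.9 and 231 ± 17 CPM, and its paralog Rbbp7 was the 1 member without overlap, at 211, 211, 191 and 69.3 in WT and 222, 216, 219 and 212 in HxD (log2 fold change 0.35 ± 0.31, adjusted p = 0.999). The DNA methylation machinery had 14 graded members of 25 and a median of 0.07, and Ogt, a glycosyltransferase that binds TET proteins, stood at 286 ± 34.6 and 281 ± 36.4 CPM. Tet2 stood at 37.9 ± 4.78 and 41 ± 19.2 CPM, from 369, 433, 261 and 365 counts in WT 1 to 4 and 221, 195, 457 and 628 in HxD 1 to 4. HxD 1 and HxD 2 thus held fewer counts than any WT library, and HxD 3 and HxD 4 held more. Tet3 was listed at 0 throughout.

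Imprinted genes, expressed from 1 parental allele under the control of DNA methylation, had a median of 0.10 over 28 graded members. Ndn, a paternally expressed MAGE protein of neurons, held 170.2, 194, 286 and 235 CPM in WT and 151, 66.3, 132 and 89.1 in HxD, and KO held 72.3, 91.9, 115 and 66.5. Every HxD and every KO library was below every WT library, yet the log2 fold change of -1.01 ± 0.28 in HxD was not called by edgeR (adjusted p = 0.312) although it was by DESeq2 (adjusted p = 0.0252), and that of KO against the same WT libraries was -1.36 ± 0.28 (adjusted p = 0.137). Grb10, an adaptor that restrains insulin signalling, held 0.228, 2.0, 26.5 and 2.71 CPM in WT and 60.9, 40.8, 53.3 and 58.4 in HxD. WT 3 stood apart from the other WT libraries, and edgeR did not call the difference, at a log2 fold change of 2.77 ± 1.16 (adjusted p = 0.999). Without WT 3 the log2 fold change was 5.0 and the gene was called (adjusted p = 0.0497), as it was by limma-voom on all libraries (adjusted p = 0.0155). Snrpn, of the same imprinted region as Ndn, was alike at 1312 ± 161 and 1344 ± 147 CPM.

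Genes that neuronal activity induces lay mostly above WT, but no member passed and libraries of the same genotype differed widely. Of 23 graded immediate early transcription factors, 19 lay above WT with a median of 0.23. Scores were 0.35, 0.42, -0.54 and -0.30 in WT 1 to 4 and -0.21, 0.31, 0.03 and 0.91 in HxD 1 to 4. Egr1, an immediate early zinc finger factor, stood at 512, 572, 277 and 321 CPM in WT and 215, 936, 289.7 and 1031 in HxD, and Fosb, a subunit of AP-1, at 28.5, 27.8, 13.7 and 0.902 and 13.5, 31.1, 28.2 and 61.4. HxD 4 was the highest in both and the genotypes overlapped. Of 34 effector genes 28 lay above WT, at a median of 0.26 and with scores of 0.14, 0.44, -0.31 and -0.10 in WT and -0.16, 0.31, -0.05 and 0.64 in HxD. Without HxD 4 the medians of the factor and effector lists were 0.02 and 0.04, and without WT 2 they were 0.48 and 0.40.

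**Figure D5:**
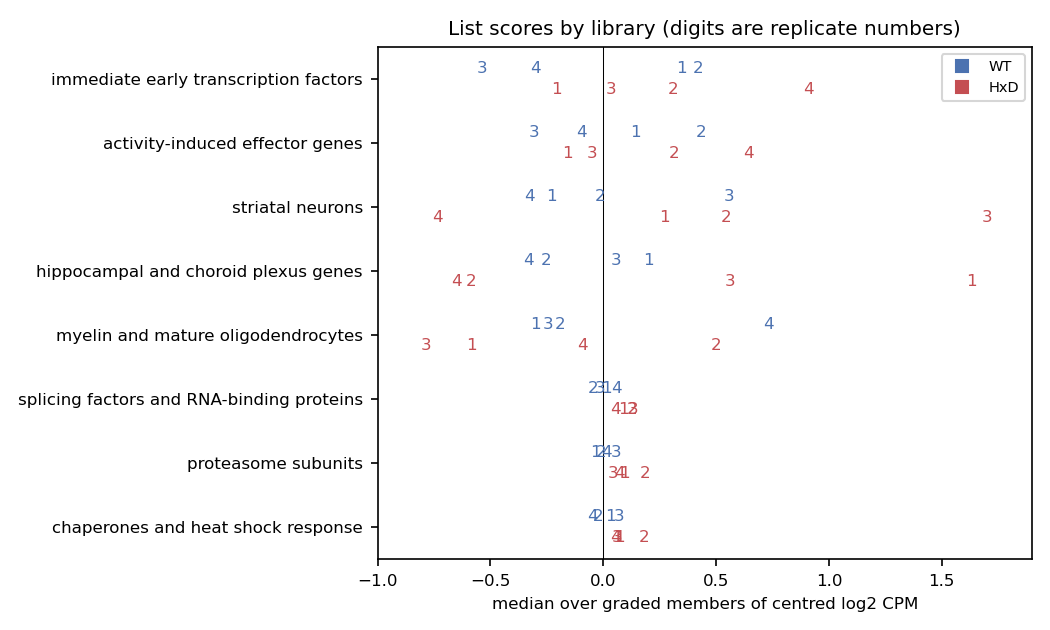
List score per library (x axis, median over the graded members of log2 CPM centred on each gene's WT mean) for 8 gene lists (y axis). Digits are replicate numbers, blue for WT and red for HxD. The lists of activity genes, neighbouring tissue and myelin spread widely within each genotype, and those of splicing, proteasome and chaperone genes span narrow ranges.

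Markers of other tissue and cell types were read beside these lists. Among striatal genes, which a cortical dissection can carry along, 14 of 15 lay above WT, the median was 0.53 (0.06 without HxD 3), and the summed level ranged over 981 to 1590 CPM in WT and 936 to 2386 in HxD. HxD 3 had the highest striatal score, 1.70, and HxD 4 the lowest, -0.73. The adenosine receptor Adora2a, a marker of the indirect pathway, shows the spread at 3.99, 11, 51.3 and 9.12 CPM in WT and 37.8, 45.5, 85 and 5.66 in HxD. Hippocampal and choroid plexus genes had a median of 0.63 over 10, or -0.13 without HxD 1, with scores of 0.20, -0.25, 0.06 and -0.33 in WT and 1.63, -0.58, 0.56 and -0.65 in HxD. Ttr, the transthyretin of the choroid plexus, held 25.6, 0.952, 1.09 and 2.31 CPM in WT and 247, 31.3, 2.22 and 1.07 in HxD. The part of neighbouring tissue in the levels of activity genes was not tested.

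Myelin and mature oligodendrocyte genes lay below WT for 25 of 31 members, with a median of -0.24 and 0 without overlap. Cnp held 214, 265, 257 and 508 CPM in WT and 191, 402, 189 and 232 in HxD, and WT 4 and HxD 2 were the highest of their genotypes. Without WT 4 the median of the myelin list was 0.11. The other cell type lists were closer to 0: astrocytes at -0.02, oligodendrocyte precursors at 0.02, microglia at -0.04, endothelium and mural cells at -0.08, excitatory layer markers at -0.04 and interneurons at 0.09. Blood genes stood at -0.16 over 7 graded members, and Hbb-bs, an adult beta globin, at 180.4 ± 52.2 and 138 ± 18.1 CPM.

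Hormone, clock and inflammatory lists held none of the called genes. Glucocorticoid-induced genes had a median of 0.07 over 21 graded members, circadian clock genes -0.02 over 21, thyroid hormone response genes 0.01 over 15 and interferon response genes -0.13 over 14. Cry2, a clock repressor, was alike at 228 ± 18.8 and 231 ± 24.5 CPM. For cold-inducible RNAs the median was 0.23, 8 of 9 lay above WT, and the list had scores of 0.03, -0.02, 0.17 and -0.21 in WT and -0.11, 0.26, 0.21 and 0.32 in HxD, which overlapped. Lists of transport and degradation were near 0: kinesins, dynein and tubulins at 0.01 over 49, endocytosis at 0.01 over 50, lysosome and autophagy at -0.04 over 47, and mRNA decay at 0.05 over 42. Cholesterol genes had a median of -0.05, and apart from Fdft1 their abundant members were alike, Srebf2 at 484 ± 41.4 and 471 ± 38.6 CPM. The neuronal kinesin Kif5a stood at 9265 ± 1754 and 7618 ± 1201.

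Genes around the Tet1 locus, on chromosome 10, were examined because they are inherited with its alleles. Of the 20 nearest symbols in gene order, 10 on each side, 11 could be tested and 9 were graded. None of these 9 was called or had libraries without overlap, and their log2 fold changes ran from -0.33 to 0.08. The helicase gene Ddx50 stood at 101 ± 5.79 CPM in WT and 102 ± 7.7 in HxD, and the mitochondrial carrier Slc25a16 at 63.5 ± 5.23 and 66.9 ± 11.8.

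Changes were near 0 at every transcript length. By tertile of the longest transcript, the median log2 fold change was 0.02 for short, 0.02 for middle and -0.02 for long transcripts, with library medians of -0.03 to 0.04 in WT and -0.09 to 0.02 in HxD for the long ones.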

How the data were processed

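Poly(A)-selected RNA of whole adult mouse cortex was sequenced in 12 libraries, 4 per genotype. The deposited table gives 1 whole-number value per gene symbol and library, read as estimated counts that the authors had not normalized. The submitters' processing notes name FastQC, Trim Galore 0.6.7, STAR 2.7.1a, SAMtools 1.9, StringTie 2.2.3 and the builds GRCm39 and mm10, with no role or order; for the counting method, annotation and strand setting, the sources used here give nothing. The 25 symbols on more than 1 row (56 rows) were left out.

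Counts of all 12 libraries were fitted in 1 model with genotype as its only term, using edgeR 4.0.16 in R 4.3.3 (TMM scaling, filterByExpr by genotype, robust quasi-likelihood F test), and the contrast was HxD minus WT. Benjamini-Hochberg adjustment ran over all 11693 tested genes, and genes were called at an adjusted p below 0.05. The fit has 9 residual degrees of freedom. Errors of fold changes are approximate standard errors, the absolute log2 fold change divided by the square root of its F statistic. The 95% intervals were built from these errors. Log2 CPM for list scores used an added 0.5 CPM. The code was tested on simulated data.

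The groups come from the genotype labels. Named genes were all graded genes past the threshold; the 10 per direction with the smallest p among uncalled genes without overlap whose higher genotype averaged 1 CPM or more; from each list up to 3 members without overlap (or the 2 with the smallest p) and the 2 with the highest mean CPM; and 3 on each side of the 8-fold limit. Some were left out where they added nothing, 1 called gene is counted but not reported here, and other genes given as examples of their list or family (such as Cnp, Fosb, Ttr, Snrpn and the relatives of Nat8f4) were chosen after their values were seen. The comparison, its rule and the gene lists were chosen with earlier results of these data known. The functional groups of the 34 calls were made after their values were seen. Promoter sequences and transcript numbers come from RefSeq (GRCm38.p6), matched by symbol, and curated transcripts were found for 10171 of 10177 graded genes. Alternatives were other scalings, filters, thresholds and fold limits, DESeq2 1.42.0, limma-voom (limma 3.58.1), fewer libraries, a replicate block, and each library left out in turn. Whole-table depth, 7767787 to 10915574 estimated counts per WT or HxD library, limits genes of few counts most.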

Additional observations from a re-analysis of the deposited data

Results flagged for a closer look

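In 11 of 126 groups of 4 libraries, over the 63 genes whose tests are given, 1 library stood far from the other 3 (8.73%). For 4 independent values of a normal distribution, chance gives this in about 1 of 20 groups. These genes were named mostly by their results and share the same libraries, so a comparison with chance does not hold here. Dnajc13 was at 2.95 CPM in WT 2, against 9.47 to 9.82 in the other WT libraries. HxD 2 was the outlying library for 3 called genes: Edf1 at 221 CPM against 179 to 182, Cpeb4 at 33.9 against 4.19 to 9.26, and Thoc7 at 20.9 against 6.24 to 8.66. Among genes not called, Syt7 was at 88.8 CPM in HxD 4 against 13.3 to 22.1, and Cadm1 at 26.7 in HxD 1 against 18.7 to 19.7. Pcdhga3 was at 50.6 CPM in WT 2 against 35.7 to 37.6, and at 15.8 in HxD 1 against 24.2 to 24.7. Grb10 was at 26.5 CPM in WT 3 against 0.228 to 2.71, Chga at 253 in WT 2 against 217 to 222, and Rbbp7 at 69.3 in WT 4 against 191 to 211.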

How the results depend on the processing

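All 34 calls (25 higher, 9 lower) stayed under size factors of DESeq2, upper-quartile factors and library size alone. DESeq2's Wald test called 47 graded genes higher and 30 lower, including all 34. limma-voom called 24 and 8 and lost 8 of the 34 (Map4k2, Ltk, Mthfsd, Tom1l2, Hmg20b, Thoc7, Evi5l and Jph2). A fit on only the 8 WT and HxD libraries called 25 and 6 and also lost 8 (Tpm1, Cpeb4, Mypop, Pla2g15, Nat8f4, Ufc1, Tjp1 and Jph2). A covariate for libraries 1 and 3 against 2 and 4 left 22 and 6 and lost 9, among them Ltk, Hmg20b, Tpm1, Cpeb4, Pla2g15, Nat8f4, Ufc1 and Tjp1. At an adjusted p below 0.01 there were 4 lower calls. A limit of 4-fold left 9 higher calls and a limit of 16-fold gave 14 lower ones. Leaving out 1 library at a time gave 20 to 24 higher and 6 to 10 lower calls, of which 26 to 29 were among the 34. Setting aside genes that ranged at least 4-fold within a genotype, an alternative chosen after seeing the data, left 23 and 8. With the replicate number as a block (replicate block, 8 libraries) 10 genes were higher and 3 lower, 12 of them among the 34. Same-numbered WT and HxD libraries correlated at 0.0169, -0.0272, 0.0781 and 0.0873 in their deviations. Pairs of an odd with an even number were all negative, at -0.118 to -0.000492, and the other pairs of unlike number were at 0.0249 to 0.073. The labels give these libraries no link beyond the number, and the source of this pattern was not tested. Of the 34 genes, 8 kept their call in all 18 refits (Gas7, Kifc2, Cc2d1b, Snrnp70, Txlna, Tcea1, Celf5 and Csad), 26 lost it in at least 1, 11 of them without some library, and none changed direction. Of 564 list medians under other scalings, that covariate, or a library left out, 10 moved by more than the spread between libraries. The cause was not tested for any of these differences. Few counts limit Thoc7, Jph2, Hmg20b, Ltk and Tom1l2 most.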

Other observations

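In some graded genes of other groups a few libraries stood far from the others of their genotype. These genes are given as values chosen after the data were seen. Lars2, the leucyl-tRNA synthetase of mitochondria, held 7088, 6947, 7083 and 7013 CPM in WT 1 to 4 and 96.1, 3255, 3448 and 3264 in HxD 1 to 4. HxD 1 stood far below the rest, and every other HxD library was also below every WT library. Ndufv2, a subunit of respiratory complex I, held 152, 0.286, 1.34 and 1.9 CPM in WT and 0.538, 0.39, 0.703 and 0.195 in HxD. Kmt2a, a histone H3 lysine methyltransferase, held 4.79, 2.38, 2.19 and 0.501 CPM in WT and 189, 1.04, 1.29 and 153 in HxD.

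Several list members not described above had libraries that did not overlap without being called. Of all graded genes 1.59% lay above WT without overlap and 1.33% below, which is the background for these single members. The adjusted p in edgeR was 0.745 for Eng, 0.967 for Sipa1l1 and 0.999 for Erbb4, Dync1li1, Cdh5, Insig2 and Ern1. In the lists of neuronal genes, Sipa1l1, a spine-associated GTPase-activating protein, held 42.2, 17.9, 34.8 and 39.4 CPM in WT and 53.6, 53.6, 63.2 and 43.3 in HxD, and Erbb4, the neuregulin receptor of interneurons, held 3.88, 3.71, 10.6 and 0.501 and 53.5, 68.6, 13.2 and 14.6. Among motors, Dync1li1, a light intermediate chain of dynein, held 129.7, 133, 128 and 106 CPM in WT and 134, 137, 146 and 135 in HxD. In the vascular list Cdh5, the cadherin of endothelial junctions, held 21.9, 23.1, 24.7 and 22.5 CPM in WT and 19.5, 20.9, 21.3 and 18.8 in HxD, and Eng, a TGF-beta co-receptor of endothelium, held 11.3, 4.0, 15.1 and 15.1 and 25.1, 38.6, 18.9 and 33.7. Insig2, which retains the sterol sensor complex in the endoplasmic reticulum, held 65, 63.4, 60.9 and 52.7 CPM in WT and 70.5, 69, 67.1 and 69.4 in HxD, and Ern1, the unfolded protein sensor IRE1, held 17, 17.9, 14.9 and 15 and 12.7, 10.4, 12.9 and 14.7.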
